A study of Mus musculus with 12 samples.

Results

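The genes of the excitatory synapse and of vesicle release described here are Grin2b, Grm3, Nlgn1, Camk2d, Stx1a and Sv2c, chosen by name as glutamate receptors, a postsynaptic organiser, a postsynaptic kinase and presynaptic release proteins. All 6 are among the 1017 genes that the deposited tables of hippocampus and cortex list. The hippocampus table lists 652 genes and all 6 of these, and the cortex table lists 561 genes and 1 of these, Grm3. The cortex of the other 5 genes was not analysed here. Each table holds only the genes that the authors called different between genotypes in that tissue. Being listed thus already means that a gene differed in these libraries. Every count given here is a description, and so are the p-values, adjusted p-values and intervals of listed genes.

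RNA was sequenced from hippocampus and cortex of adult C57BL/6 mice, wild type (WT, kcnma1+/+) or BK KO (kcnma1-/-), with 3 libraries for each genotype and tissue and 12 in all. BK KO mice carry a CRISPR/Cas9 frameshift deletion in an exon of kcnma1 in every cell of the body, and they came with WT littermates from crosses of heterozygous mice. A change in a tissue therefore cannot be assigned to loss of the channel from that tissue's own cells. The methods call the sequenced mice adult and give no sex for them by name. For the experiments that followed the breeding, which they list only in part, they name male BK KO mice 3 months old. The study asked which transcripts differ in the brain of mice that lack the BK channel and have seizures.

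At an excitatory synapse an action potential opens calcium channels in the nerve terminal, and SNARE proteins such as syntaxin then fuse transmitter-filled vesicles with the terminal membrane. Released glutamate acts on ionotropic receptors, which pass current, and on metabotropic receptors, which signal through G proteins. On the receiving side, adhesion proteins hold the synapse together and calcium-activated kinases adjust its strength. BK channels are potassium channels opened by calcium and depolarisation, and they sit in many nerve terminals, where they shorten the action potential.

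Kcnma1, which encodes the alpha subunit that forms the BK channel, was examined first as a check of the labels. In hippocampus it was at 11.3, 10.6 and 9.67 FPKM (fragments mapped to a transcript, scaled by its length and by the size of the library) in WT replicates 1, 2 and 3, and at 2.54, 2.82 and 2.81 FPKM in BK KO replicates 1, 2 and 3. The cortex values were 12, 9.82 and 11.8 FPKM in WT and 3.09, 2.97 and 2.76 FPKM in BK KO libraries, in the same order of replicates. Every library labelled BK KO was below every library labelled WT in both tissues, and transcript remained in all 6 of them. Kcnma1 fell by 1.63 on the log2 scale in each tissue (standard error 0.10; limma adjusted p = 0.000844 in hippocampus and 0.00178 in cortex).

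Each tissue was fitted with limma on log2(FPKM + 1) over all of its listed genes, and a gene is called past the threshold when its unadjusted p is under 0.05 and its log2 fold change lies beyond 0.58 in either direction. The added 1 shrinks the log2 fold change of a gene with few FPKM. Past the threshold in hippocampus were 5 of the 6 genes, Sv2c, Camk2d and Nlgn1 higher and Stx1a and Grm3 lower in BK KO mice, where 42.6% of all listed genes passed. That share includes genes with few FPKM, which the added 1 holds back. In a fit of only the genes with a mean of at least 1 FPKM 268 passed, and 442 genes besides each of the 6 reached that mean. Grin2b fell short on the size of its change. With a pseudocount of 0.1 in place of 1 all 6 passed, and so did 548 of the 652 listed genes. The Benjamini-Hochberg adjustment ran over genes already selected on the same libraries, so it does not control a false discovery rate over all genes. All 6 had a Benjamini-Hochberg adjusted p under 0.05, against 71.6% of the listed genes. With size factor scaling that of Grin2b was 0.0522 (0.0292 to 0.0522 over its alternatives with all libraries), and with 1 library left out each gene but Sv2c had an adjusted p over 0.05 in at least 1 fit. In 4 of the 6 the BK KO and WT libraries did not overlap, against 79.9%. In cortex Grm3 passed, where 30.8% of the listed genes did, or 408 of 561 with a pseudocount of 0.1. It also had an adjusted p under 0.05 and groups that did not overlap, as did 61.3% and 80.6% of the cortex genes. The median log2 fold change was 0.59 over the 6 genes and -0.27 over all genes of the hippocampus table.

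**Figure D1:**
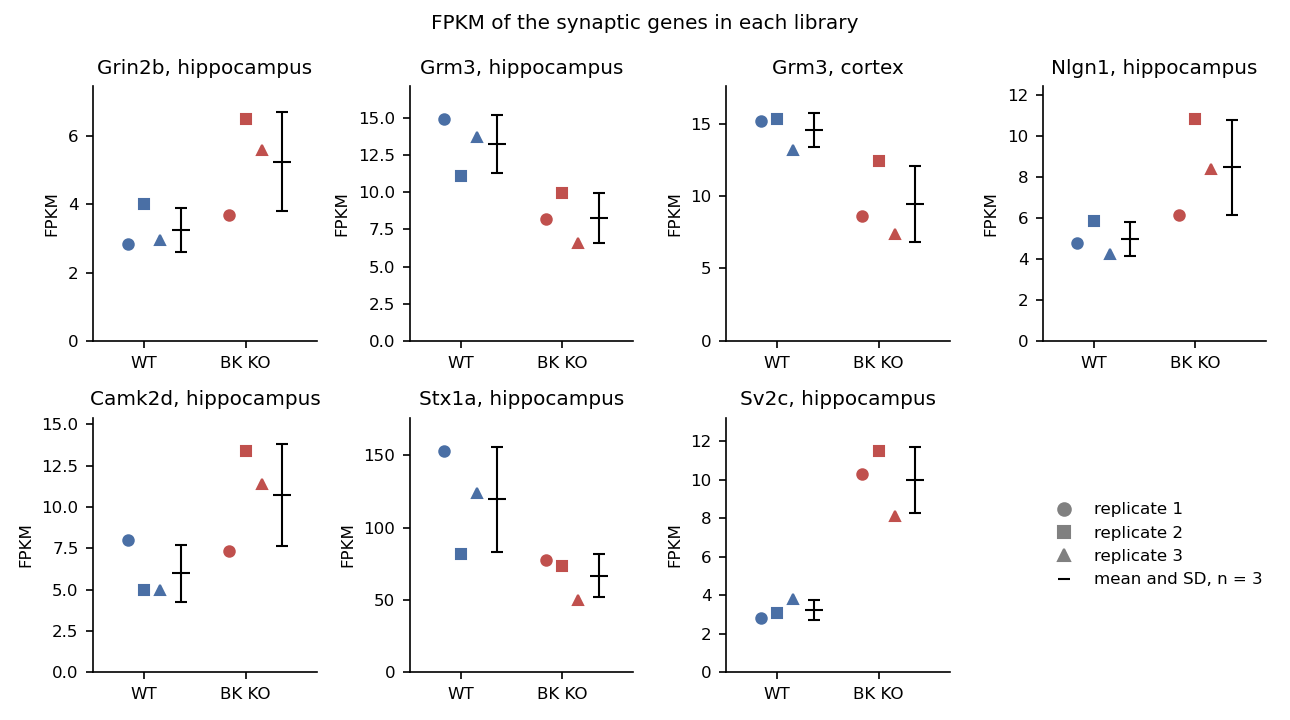
FPKM of each gene in each library, WT in blue and BK KO in red, with a symbol for each replicate and the mean with its SD (n = 3) in black at the right of each group. The groups are apart in Sv2c, Nlgn1, Stx1a and both panels of Grm3, and overlap in Grin2b and Camk2d.

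In WT hippocampus the order of levels, as mean FPKM ± SD (n = 3), was Stx1a at 119 ± 35.8, Grm3 at 13.3 ± 1.94, Camk2d at 5.98 ± 1.73, Nlgn1 at 4.97 ± 0.821, Grin2b at 3.25 ± 0.647 and Sv2c at 3.24 ± 0.534. Camk2d and Nlgn1 differed by less than the SD of Camk2d, though by more than that of Nlgn1, and Grin2b and Sv2c by less than either SD. In BK KO hippocampus Stx1a was again far above the others at 66.8 ± 15.0. Below it stood Camk2d at 10.7 ± 3.09, Sv2c at 9.98 ± 1.7, Nlgn1 at 8.46 ± 2.35 and Grm3 at 8.25 ± 1.66, neighbours that did not differ beyond their SDs, and then Grin2b at 5.24 ± 1.44. Sv2c, level with Grin2b at the bottom of the 6 in WT mice, was thus level with Camk2d in BK KO mice, while Grm3, ahead of Camk2d in WT mice, did not stand apart from it in BK KO mice.

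**Figure D2:**
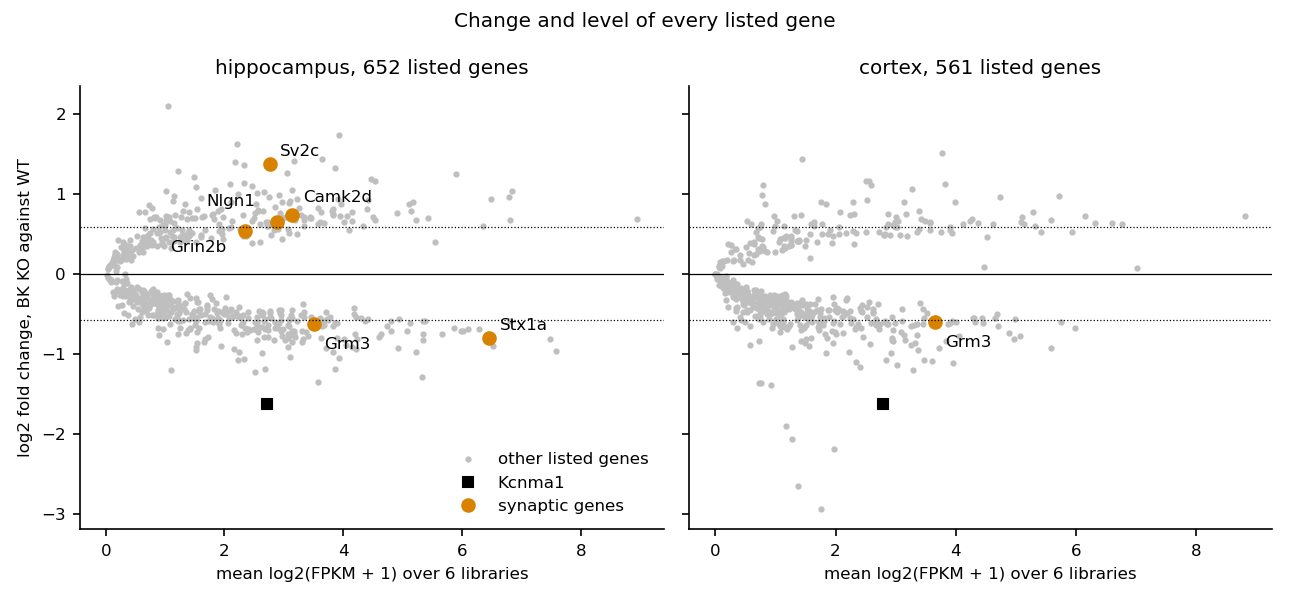
Log2 fold change of BK KO against WT and mean log2(FPKM + 1) over the 6 libraries of a tissue, 1 point for each listed gene, with the synaptic genes in orange, Kcnma1 as a black square and dotted lines at 0.58 in either direction. Sv2c, at 1.37, is among the largest rises of hippocampus on log2(FPKM + 1), which shrinks the changes of genes with few FPKM.

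Grin2b encodes the GluN2B subunit of NMDA receptors, the glutamate-gated channels that admit calcium and are needed for many forms of synaptic plasticity. The gene spans 460 kb on the minus strand of chromosome 6 (GRCm38, chr6:135713233-136173511, GENCODE M21). It was at 2.82, 3.99 and 2.94 FPKM in WT replicates 1, 2 and 3 and at 3.67, 6.48 and 5.58 FPKM in BK KO replicates 1, 2 and 3. BK KO replicate 1 lay below WT replicate 2, so the groups overlapped, while the other BK KO libraries were above all WT libraries. The log2 fold change was 0.54 (standard error 0.20, 95% interval 0.06 to 1.02, limma adjusted p = 0.0475), short of the 0.58 required. It passed without WT replicate 2, at 0.66, without BK KO replicate 1, at 0.73, and with a pseudocount of 0.1 in place of 1, at 0.65. Without WT replicate 1, at 0.47, WT replicate 3, at 0.49, BK KO replicate 2, at 0.39, or BK KO replicate 3, at 0.49, its unadjusted limma p was over 0.05 as well. A two-sided exact permutation test of the FPKM gave p = 0.2, and the smallest p that 3 against 3 libraries allow is 0.1. The authors' base means, which are size-factor-scaled read counts averaged over a group, were 630.5 in WT and 1014 in BK KO hippocampus. Of the 18 ionotropic glutamate receptor genes looked for, Grin2b was the 1 listed in hippocampus, and 0 were listed in cortex.

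Grm3 encodes the metabotropic glutamate receptor mGlu3, which couples to inhibitory G proteins and is found on neurons and on glia. It lies on the minus strand of chromosome 5 (GRCm38, chr5:9485541-9725170) and was also measured in the study by RT-PCR. The primer pair is shown since it marks the stretch of the transcript that this other assay read. Both primers match exon 2 of the 6 exons and enclose a product of 160 bases at chr5:9589680-9589839.
Grm3 forward primer: ctggaggccatgttgtttgc
Grm3 reverse primer: catccactttagtcaacgatgct

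In hippocampus Grm3 was at 14.9, 11.1 and 13.7 FPKM in WT replicates 1, 2 and 3 and at 8.22, 9.93 and 6.60 FPKM in BK KO replicates 1, 2 and 3. All BK KO libraries were below all WT libraries, and the narrowest gap was between BK KO replicate 2 and WT replicate 2. Grm3 fell by 0.63 on the log2 scale (standard error 0.17, limma adjusted p = 0.0221; two-sided exact permutation p = 0.1). The call was lost without WT replicate 1, at -0.55, and without BK KO replicate 3, at -0.50. In cortex it was at 15.2, 15.3 and 13.2 FPKM in WT mice against 8.6, 12.4 and 7.39 FPKM in BK KO replicates 1, 2 and 3. The cortex groups did not overlap either, with BK KO replicate 2 close to the lowest WT library. The log2 fold change in cortex was -0.60 (standard error 0.18, limma adjusted p = 0.0373; two-sided exact permutation p = 0.1), and it no longer passed without WT replicate 1 or WT replicate 2, at -0.57 each, without BK KO replicate 1, at -0.55, or without BK KO replicate 3, at -0.46.

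The change of Grm3 was tested between tissues in 1 fit over the 196 genes listed in both tables and all 12 libraries. Each of these genes was called in both tissues on the same libraries, which favours like changes in advance. The fit thus cannot show that the tissues respond alike. The log2 fold change of Grm3 in cortex minus that in hippocampus was 0.03 (standard error 0.26, 95% interval -0.55 to 0.61, limma adjusted p = 0.998). A difference was not detected, and the interval admits differences nearly as large as the change itself in hippocampus. Its sign turned without WT hippocampus replicate 1, at -0.05, BK KO hippocampus replicate 3, at -0.10, WT cortex replicate 3, at -0.04, or BK KO cortex replicate 2, at -0.16. Within BK KO mice the order of the libraries was the same in both tissues, replicate 2 highest and replicate 3 lowest. By the study's methods both tissues were taken from the same mice, but which libraries share a mouse is not given, and the fit took the 12 libraries as separate. With same-numbered hippocampus and cortex libraries taken as 1 mouse, in a block, the difference was again 0.03 (standard error 0.20). The authors' base means of Grm3 were 1090.2 in WT and 679 in BK KO hippocampus, and 1286 and 809 in cortex. Of the 8 metabotropic glutamate receptor genes looked for, Grm3 was the 1 listed in each tissue.

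Nlgn1 encodes neuroligin 1, a postsynaptic adhesion protein of excitatory synapses that binds presynaptic neurexins. It is the longest of the 6 genes, with 906 kb on the minus strand of chromosome 3 (GRCm38, chr3:25426215-26332460). Its FPKM was 4.79, 5.86 and 4.25 in WT replicates 1, 2 and 3 and 6.15, 10.8 and 8.40 in BK KO replicates 1, 2 and 3. The groups did not overlap, but BK KO replicate 1 was only just above WT replicate 2. Nlgn1 rose by 0.64 on the log2 scale (standard error 0.20, 95% interval 0.16 to 1.13, limma adjusted p = 0.0307; two-sided exact permutation p = 0.1). Without WT replicate 3 the value was 0.56 and without BK KO replicate 2 it was 0.47, and neither passed. The authors' base means were 1100.3 in WT and 1777 in BK KO hippocampus.

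Among the 61 postsynaptic organisers and scaffolds looked for, 2 were listed in hippocampus, Nlgn1 and Cacng4, and 0 in cortex. Cacng4 encodes an auxiliary subunit of AMPA receptors. It was at 8.49, 8.19 and 18.6 FPKM in WT mice against 20.4, 18.1 and 17.8 FPKM in BK KO replicates 1, 2 and 3. WT replicate 3 thus lay within the range of the BK KO libraries and the other WT libraries far below it. The log2 fold change was 0.73 (standard error 0.29, limma adjusted p = 0.0542). It was 1.08 without WT replicate 3, and the call was lost without any 1 of the other 5 libraries, at 0.56 without WT replicate 1, 0.54 without WT replicate 2, and 0.67, 0.75 and 0.76 without BK KO replicates 1, 2 and 3.

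Camk2d encodes the delta subunit of calcium/calmodulin-dependent kinase II, the enzyme that phosphorylates synaptic proteins after calcium entry; the alpha and beta subunits prevail in forebrain neurons. The gene spans 250 kb on the plus strand of chromosome 3 (GRCm38, chr3:126596302-126846326). It was at 7.98, 5.0 and 4.96 FPKM in WT replicates 1, 2 and 3 and at 7.36, 13.4 and 11.4 FPKM in BK KO replicates 1, 2 and 3. WT replicate 1 was above BK KO replicate 1, so the groups overlapped, and the other BK KO libraries were above all WT libraries. Camk2d rose by 0.74 on the log2 scale (standard error 0.25, 95% interval 0.15 to 1.33, limma adjusted p = 0.0370; two-sided exact permutation p = 0.2). The rise did not pass without WT replicate 2 or WT replicate 3, at 0.64 each, without BK KO replicate 2, at 0.57, or without BK KO replicate 3, at 0.68. The authors' base means were 1981 in WT and 3308 in BK KO hippocampus. Of the 26 calcium-dependent kinases and partners looked for, Camk2d was the 1 listed in hippocampus and 0 were listed in cortex.

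Stx1a encodes syntaxin 1A, the SNARE protein of the presynaptic membrane to which the vesicle is docked and fused. It is a short gene of 27.6 kb on the plus strand of chromosome 5 (GRCm38, chr5:135023482-135051100), and 9 of the 652 hippocampus genes had a higher mean FPKM. It was at 153, 81.4 and 124 FPKM in WT replicates 1, 2 and 3 and at 77.3, 73.5 and 49.7 FPKM in BK KO replicates 1, 2 and 3. All BK KO libraries were below all WT libraries, with WT replicate 2 close to the highest BK KO library and WT replicate 1 far above it. Stx1a fell by 0.81 on the log2 scale (standard error 0.27, 95% interval -1.44 to -0.17, limma adjusted p = 0.0355; two-sided exact permutation p = 0.1). The fall did not pass without WT replicate 1, at -0.61, without WT replicate 3, at -0.76, or without BK KO replicate 3, at -0.61. The authors' base means were 5714 in WT and 3368 in BK KO hippocampus.

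Of the 57 genes of the SNARE and active zone machinery looked for, 3 were listed in hippocampus, Stx1a and Unc13a lower and Syt10 higher, and 0 in cortex. All 3 passed, where 42.6% of all listed hippocampus genes did. Unc13a encodes Munc13-1, which primes vesicles and opens syntaxin for SNARE assembly. It was at 57.7, 41.7 and 51.4 FPKM in WT mice against 33.6, 35.0 and 29.8 FPKM in BK KO replicates 1, 2 and 3. The groups did not overlap, and WT replicate 2 was the lowest WT library, as in Stx1a. Unc13a fell by 0.59 on the log2 scale (standard error 0.15, limma adjusted p = 0.0193), and the call was lost without WT replicate 1, at -0.49, without WT replicate 3, at -0.57, and without BK KO replicate 3, at -0.52. These are the libraries whose removal also ended the call of Stx1a.

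Stx1a was measured against Unc13a within each library, a ratio chosen after the values were seen. Stx1a FPKM over Unc13a FPKM was 2.64, 1.95 and 2.41 in WT and 2.30, 2.10 and 1.67 in BK KO replicates 1, 2 and 3. The groups overlapped, and the ratio did not differ beyond its spread (two-sided exact permutation p = 0.4). Syt10, a calcium sensor of the synaptotagmin family, was at 0.875, 1.08 and 0.717 FPKM in WT mice against 2.54, 1.68 and 2.61 FPKM in BK KO libraries. It was low in all libraries and higher in every BK KO library, rising by 0.79 on the log2 scale (standard error 0.15, limma adjusted p = 0.0156), and it passed with any 1 library left out.

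Sv2c encodes synaptic vesicle glycoprotein 2C, a member of the SV2 family of vesicle membrane proteins that is most abundant in basal ganglia and in some inhibitory neurons. The gene spans 178 kb on the minus strand of chromosome 13 (GRCm38, chr13:95954594-96132577). It was at 2.80, 3.08 and 3.83 FPKM in WT replicates 1, 2 and 3 and at 10.3, 11.5 and 8.14 FPKM in BK KO replicates 1, 2 and 3. The lowest BK KO library was well above the highest WT library. Sv2c rose by 1.37 on the log2 scale (standard error 0.16, 95% interval 1.0 to 1.74, limma adjusted p = 0.0120; two-sided exact permutation p = 0.1), and it passed with any 1 library left out, at 1.27 to 1.5. The mean FPKM was 3.09-fold higher in BK KO mice. Among the 272 genes that were higher, 6 had a larger log2 fold change on log2(FPKM + 1). This order depends on the added 1, which shrinks the changes of genes with few FPKM. Among the 95 higher genes with a mean of at least 5 FPKM, Sv2c ranked 5 by this size. The authors' base means were 326.6 in WT and 995 in BK KO hippocampus.

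The list of 29 synaptic vesicle proteins had 3 listed genes in each tissue. In hippocampus Sv2c passed, and Syn3 and Sypl2 did not. With a pseudocount of 0.1 Syn3, at 0.65, and Sypl2, at -0.93, passed there as well. Syn3, a synapsin that binds vesicles, was at 1.54, 1.69 and 1.54 FPKM in WT mice against 2.24, 3.04 and 2.43 FPKM in BK KO hippocampus, a log2 fold change of 0.46 (standard error 0.12, limma adjusted p = 0.0209). In cortex it was at 1.67, 2.06 and 1.56 FPKM in WT mice against 2.42, 3.71 and 3.68 FPKM in BK KO libraries. Syn3 passed there, at 0.62 (standard error 0.15, limma adjusted p = 0.0267), but not without WT replicate 3, at 0.56, or without BK KO replicate 2 or 3, at 0.54 each. Amph, which encodes the endocytic protein amphiphysin, was at 26.6, 26.9 and 25.2 FPKM in WT mice against 40.9, 52.2 and 33.8 FPKM in BK KO cortex. The groups were well apart, and Amph rose by 0.65 on the log2 scale (standard error 0.16, limma adjusted p = 0.0266), with the call lost without BK KO replicate 2, at 0.49. Sypl2 was at most 1.21 FPKM in any library and lower in every BK KO library of both tissues. Its log2 fold change was -0.41 in hippocampus and -0.45 in cortex, and it passed in both with a pseudocount of 0.1 but not of 1.

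Over all 6 synaptic lists, 11 of 199 genes were listed in hippocampus and 8 passed, 5 higher and 3 lower, where 42.6% of all listed genes passed. Without the 6 chosen genes 5 were listed and 3 passed. Leaving out a library moved the count of 8 for all 6 lists to 4 without WT replicate 1 or WT replicate 3, to 5 without BK KO replicate 2 and to 3 without BK KO replicate 3. In cortex 4 of the 199 were listed and 3 passed, 2 higher and 1 lower, where 30.8% of all listed genes passed, and 2 of the 3 other than Grm3 did. In cortex 1 passed without BK KO replicate 2 or without BK KO replicate 3. The lists were described by these counts and were not tested.

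**Figure D3:**
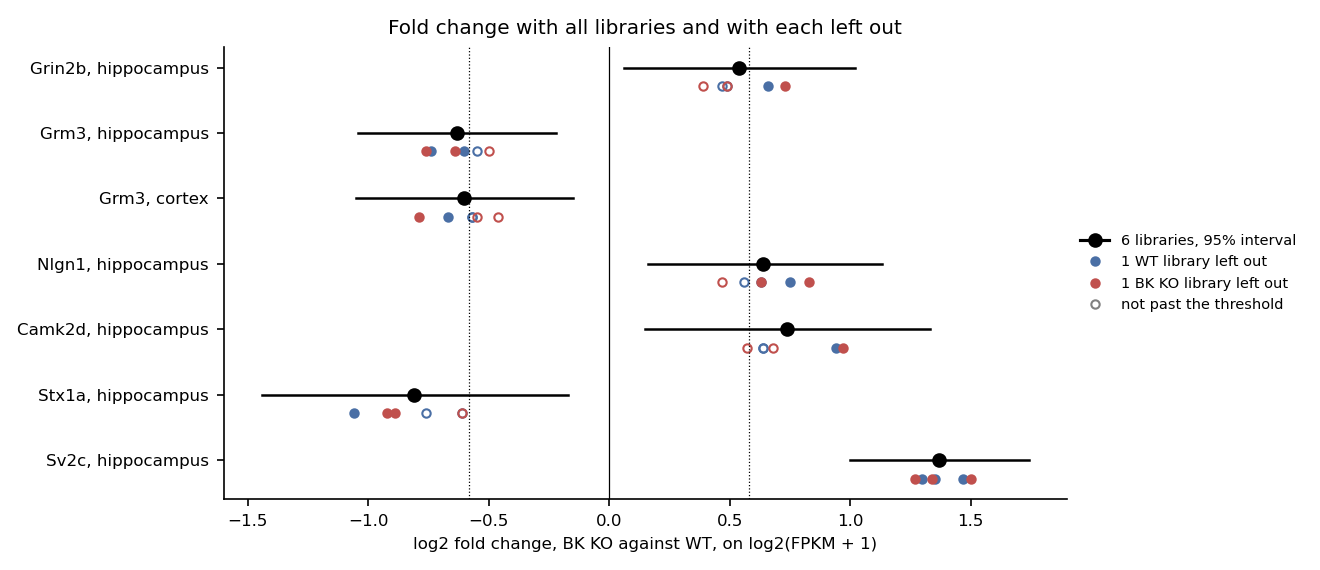
Log2 fold change of each gene with all 6 libraries of its tissue (black, with the 95% interval) and with 1 WT library (blue) or 1 BK KO library (red) left out; open points did not pass the threshold, drawn as dotted lines at 0.58. Every value keeps its sign, and Sv2c is the gene with 6 filled points.

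In BK KO hippocampus replicate 2 was the highest library in 5 of the 6 genes. It stood above the group mean of log2(FPKM + 1) by 0.29 in Grin2b, 0.35 in Nlgn1, 0.34 in Camk2d, 0.26 in Grm3 and 0.20 in Sv2c, and in Stx1a replicate 1 was higher. The lowest library was replicate 1 in Grin2b, Nlgn1 and Camk2d, at -0.39, -0.37 and -0.45, and replicate 3 in Stx1a, Grm3 and Sv2c, at -0.39, -0.27 and -0.25. Once each group's mean was taken off, Grin2b and Nlgn1 had a Pearson correlation of 0.96 over the 6 hippocampus libraries, and Stx1a and Grm3 one of 0.88. Sv2c and Grin2b had one of 0.00. These are descriptions over 6 libraries that all genes share, and their depth is unknown.

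**Figure D4:**
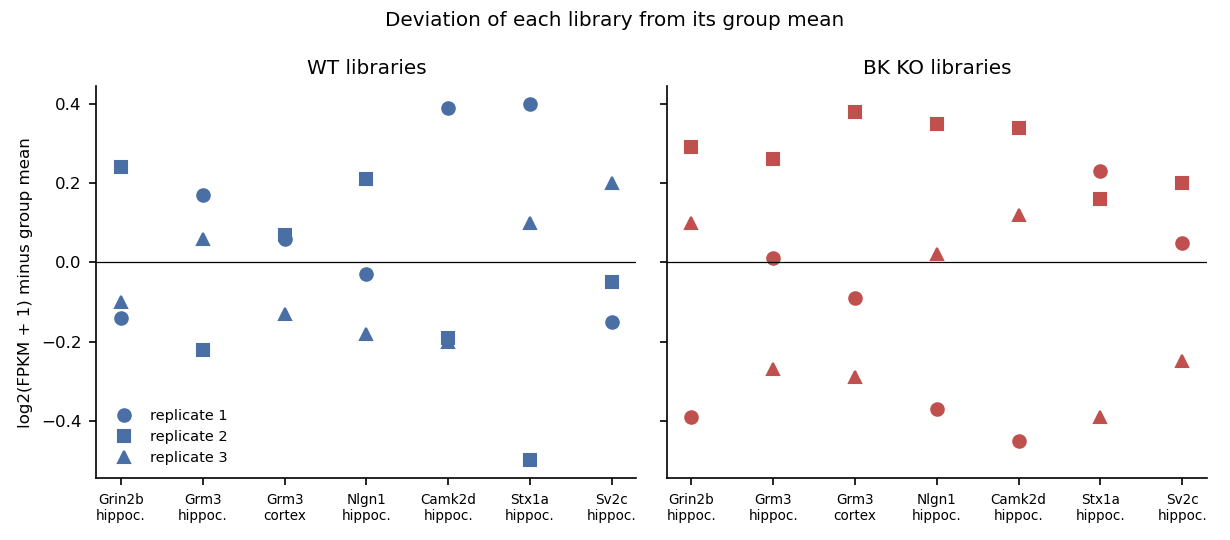
Log2(FPKM + 1) of each library minus the mean of its group, for WT (left) and BK KO (right) libraries, with a symbol for each replicate. Among BK KO libraries replicate 1 is lowest in Grin2b, Nlgn1 and Camk2d, and replicate 3 is lowest in the other genes.

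The deviations of the libraries were also set against gene length and GC content. Across the 432 hippocampus genes with a mean of at least 1 FPKM and an annotated length, which are not independent replicates, the correlation of the deviation with the log2 of the gene's span was 0.02, 0.12 and -0.13 in WT replicates 1, 2 and 3 and -0.12, 0.20 and -0.08 in BK KO replicates 1, 2 and 3. With the GC share that the annotation gives it was 0.01, -0.20 and 0.18 in WT and 0.11, -0.13 and 0.02 in BK KO libraries. The deviations are taken from the mean of each library's own group, so these correlations describe single libraries and not the difference between genotypes. The 4 synaptic genes that were higher in BK KO hippocampus span at least 178 kb, and of the 2 that were lower Grm3 spans 240 kb and Stx1a 27.6 kb. Listed hippocampus genes that were higher had a median span of 45.1 kb and those that were lower one of 18.9 kb. The cortex medians were 18.6 kb and 23.3 kb. Any part of gene length, GC content or RNA quality in the values was not tested.

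The 3 listed genes whose levels ran most nearly parallel to each gene were named by the Pearson correlation of log2(FPKM + 1) over the 6 libraries of a tissue, among genes with a mean of at least 1 FPKM. The libraries differ in genotype, which alone brings high correlations among genes listed for that difference, so the number of genes above 0.9 is given too. For Grin2b they were Slc7a14 (r = 0.994), Tmem117 (0.993) and Spon1 (0.983), with 16 of 442 genes above 0.9. Nlgn1 shared Tmem117 (0.986) and Spon1 (0.984), behind Peg10 (0.992), with 26 genes above 0.9. Camk2d was followed by Glra3 (0.976), Uhmk1 (0.975) and Oxtr (0.973), with 13 above 0.9. Stx1a was followed by Col11a1 (0.996), Pamr1 (0.986) and Dkkl1 (0.983), with 46 above 0.9. For Grm3 they were Hkdc1 (0.984), Plk3 (0.982) and Mapk11 (0.978) in hippocampus, with 43 above 0.9, and Glt8d1 (0.968), Invs (0.959) and Opalin (0.957) in cortex, with 13 of 344. Sv2c was followed by Gad2 (0.998), Smpdl3b (0.992) and Cdo1 (0.988), with 46 above 0.9.

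Gad2 encodes a glutamate decarboxylase that makes GABA and marks inhibitory neurons. It was at 12.8, 14.7 and 16.4 FPKM in WT mice against 34.1, 37.5 and 29.8 FPKM in BK KO hippocampus, so that the order of all 6 libraries was that of Sv2c. The ratio of Sv2c to Gad2 FPKM, chosen after the values were seen, was 0.218, 0.210 and 0.233 in WT and 0.303, 0.307 and 0.273 in BK KO replicates 1, 2 and 3. Sv2c was thus higher in BK KO mice also per unit of Gad2, by 1.34-fold, with groups that did not overlap (two-sided exact permutation p = 0.1). In bulk tissue more cells of a type and more RNA per cell cannot be told apart.

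**Figure D5:**
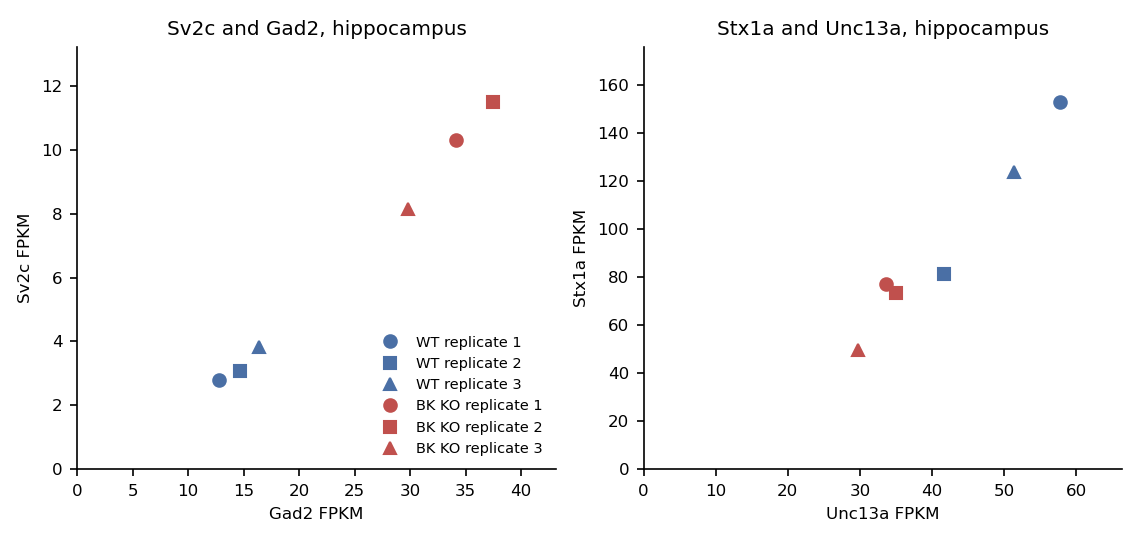
Sv2c against Gad2 FPKM (left) and Stx1a against Unc13a FPKM (right) in the 6 hippocampus libraries, WT in blue and BK KO in red, with a symbol for each replicate. On the left the BK KO libraries stand apart from the WT libraries on both axes, and on the right WT replicate 2 lies near the BK KO libraries.

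Markers of cell types and regions were looked for in both tables, and the summed FPKM of the listed ones is given for WT and then BK KO replicates 1, 2 and 3. In hippocampus 2 of 15 inhibitory neuron markers were listed, Gad2 and Reln, both higher, with sums of 18.7, 19.3 and 21.4 against 47.0, 51.1 and 39.0 and Gad2 the most abundant. Of 18 oligodendrocyte lineage markers 3 were listed, Opalin, Ugt8a and Olig2, all lower, with sums of 27.9, 46.4 and 48.0 against 20.6, 25.7 and 22.3, Opalin the most abundant. Tek, 1 of 8 endothelial markers, was at 2.72, 2.87 and 2.00 against 1.27, 1.80 and 1.18. None of the 12 astrocyte and 11 microglia markers was listed.

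Markers of hippocampal fields and neighbouring regions were also among the listed genes. Wfs1, of 5 CA1 markers, was at 52.6, 33.9 and 29.8 FPKM in WT mice against 75.9, 124 and 80.1 FPKM in BK KO hippocampus. Cdh24, of 11 CA2 and CA3 markers, was at 3.0, 3.11 and 3.22 against 1.75, 1.35 and 2.16, and Pdzd2, of 9 dentate gyrus markers, at 3.68, 2.92 and 3.54 against 6.32, 3.78 and 5.34. Of 11 cortical layer markers 5 were listed, Bcl11b and Nxph4 higher and Rorb, Fezf2 and Rspo1 lower, with sums of 35.1, 34.2 and 35.9 against 37.4, 34.7 and 30.4 and Bcl11b the most abundant.

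Tac1, of 11 striatum markers, was at 3.97, 3.29 and 26.6 FPKM in WT mice against 36.4, 18.9 and 28.2 FPKM in BK KO hippocampus, so that WT replicate 3 lay among the BK KO libraries, as it did in Cacng4. Trh, of 7 hypothalamus markers, was at 0.345, 3.43 and 2.09 against 11.6, 4.09 and 7.33. Gh, of 8 pituitary markers, was listed at 0 in all WT libraries, and BK KO replicates 1, 2 and 3 held 0.120, 0.184 and 57.5 FPKM. Of 18 activity-regulated genes Nr4a1 and Npas4 were listed and lower, with sums of 31.0, 17.2 and 23.3 against 15.5, 3.94 and 13.0 and Nr4a1 the most abundant. Skeletal muscle, choroid plexus and thalamus markers had 0 listed genes. The part of these cells and regions in the changes of the synaptic genes was not tested.

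In cortex, where Grm3 was lower, 4 of 18 oligodendrocyte lineage markers were listed and all were lower, with sums of 33.7, 39.8 and 29.2 in WT and 15.8, 22.0 and 17 in BK KO libraries and Opalin the most abundant. The ratio of Grm3 to Opalin FPKM, chosen after the values were seen, was 0.977, 0.664 and 0.929 in WT and 1.1, 0.997 and 1.14 in BK KO cortex, and in hippocampus the groups overlapped in this ratio. Gfap, of 12 astrocyte markers, was at 42.5, 50.4 and 23.1 against 92.2, 82.6 and 50.9. Gad2, of 15 inhibitory neuron markers, was at 14.3, 15.6 and 12.9 against 19.1, 33.1 and 20.6, Itgam, of 11 microglia markers, at 6.47, 6.00 and 3.99 against 3.53, 4.62 and 2.77, and Tek at 2.74, 2.66 and 2.00 against 1.44, 1.43 and 1.64.

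Of 15 skeletal muscle markers 12 were listed in cortex and all were lower in BK KO mice, with sums of 90.4, 32.8 and 27.6 FPKM in WT and 9.79, 8.28 and 7.53 FPKM in BK KO libraries and Acta1 the most abundant. WT replicate 1 had the highest sum by far. Wfs1 was at 34.7, 38.9 and 37.6 against 58.2, 67.5 and 54.5, and Pdzd2 at 2.92, 3.43 and 3.39 against 4.43, 4.51 and 6.38. Of the CA2 and CA3 markers 3 were listed, Bok higher and Nectin3 and Cdh24 lower, with sums of 36.0, 34.4 and 24.4 against 39.6, 47.9 and 52.1 and Bok the most abundant. The activity-regulated genes Egr2 and Npas4 were lower, with sums of 4.56, 2.81 and 6.35 against 1.83, 0.979 and 2.76 and Npas4 the most abundant. Excitatory neuron, cortical layer, striatum, choroid plexus, pituitary, hypothalamus and thalamus markers had 0 listed genes. The part of these cells in the change of Grm3 was not tested.

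The annotation terms that the deposited tables give with each gene were compared among the 6. Over all 652 listed hippocampus genes, 272 were higher and 380 lower, and 42.6% passed. The term synapse was given to Grin2b, Nlgn1, Stx1a and Sv2c, and among the 25 listed hippocampus genes with it 17 were higher and 8 lower in BK KO mice, with 17 past the threshold. Cell junction was given to the same 4 genes, and of its 39 listed genes 19 were higher and 20 lower, and 15 passed. Postsynaptic density was given to Grin2b, Grm3, Nlgn1 and Stx1a. Of its 12 listed genes 7 were higher and 5 lower, and 6 passed. Synaptic vesicle was given to Grin2b, Stx1a and Sv2c, and of its 7 listed genes 4 were higher and 3 lower, and 2 passed. Presynaptic membrane was given to Grin2b, Grm3 and Stx1a, and of its 4 listed genes 1 was higher and 3 lower, and 3 passed. Neuron projection was shared by all but Nlgn1, with 16 of 25 listed genes higher and 17 past the threshold. In the glutamatergic synapse pathway, which held Grin2b and Grm3, 1 of 5 listed genes was higher and 4 were lower, and 2 passed. The pathway of long-term potentiation held Grin2b and Camk2d among 3 listed genes, all higher, of which 1 passed. The synaptic vesicle cycle pathway held Stx1a among 2 listed genes, both lower and both past the threshold. These terms were read after the values were seen and were not tested.

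Promoter sequences were looked at as a feature that the choice of genes did not use. RefSeq promoters (GRCm38.p6) were found for 5 of the 6 genes, all but Grin2b, with 2 promoters for Nlgn1. The 250 bases before the start of transcription were searched on both strands for the GC box GGGCGG, the E-box CACGTG, the cyclic AMP response element TGACGTCA, and the shorter letters TGACG, which that element contains. The promoters of Sv2c, with the largest rise, of Stx1a, with the largest fall, and of Grm3, lower in both tissues, are shown on the strand of the gene, with the GC box and TGACG in capitals on either strand. They lie at chr13:96132578-96132827 (minus strand), chr5:135023232-135023481 (plus strand) and chr5:9725353-9725602 (minus strand).
Sv2c promoter: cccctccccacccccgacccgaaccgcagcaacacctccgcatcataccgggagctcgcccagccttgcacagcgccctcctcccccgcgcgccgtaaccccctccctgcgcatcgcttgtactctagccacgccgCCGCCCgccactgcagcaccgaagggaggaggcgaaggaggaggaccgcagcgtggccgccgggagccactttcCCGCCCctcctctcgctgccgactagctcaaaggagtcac
Stx1a promoter: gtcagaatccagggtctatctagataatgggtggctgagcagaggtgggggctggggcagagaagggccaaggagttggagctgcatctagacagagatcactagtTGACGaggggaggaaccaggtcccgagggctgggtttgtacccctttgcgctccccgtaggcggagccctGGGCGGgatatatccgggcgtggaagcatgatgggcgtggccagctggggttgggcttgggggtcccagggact
Grm3 promoter: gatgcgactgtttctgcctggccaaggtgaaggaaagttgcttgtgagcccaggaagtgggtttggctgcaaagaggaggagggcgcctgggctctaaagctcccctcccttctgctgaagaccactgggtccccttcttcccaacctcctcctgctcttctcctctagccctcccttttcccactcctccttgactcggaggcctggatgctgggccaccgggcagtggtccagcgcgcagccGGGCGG

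The GC box was present in 4 of the 5 genes, 3 times in Camk2d, 2 times in Sv2c and 1 time each in Stx1a and Grm3, and in neither promoter of Nlgn1, against 32.7% of the 32851 promoters of the table. TGACG was found in Stx1a, against 17.8% of all promoters. The full cyclic AMP response element, held by 1.55% of all promoters, and the E-box, held by 6.02%, were in none of the 5 genes. GC made up 70.8% of the Sv2c promoter, 62.0% of that of Stx1a and 62.4% of that of Grm3. A match is a description of letters and was not tested for binding.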

How the data were processed

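Hippocampus and cortex libraries of WT and BK KO mice, 12 in all, were grouped by their labels. The authors made poly-A libraries, compared genotypes with DESeq (the submitters' processing notes name DESeq 1.10.1, DESeq2 and mm9), and the deposited gene tables used here list the called genes only. The aligner and the counter are not given in the sources used here. The per-library values deposited by the authors are taken as FPKM, a unit their columns do not name: the ratio of base mean to value rose with transcript length (Pearson 0.677 over 432 hippocampus genes). The base means that the authors deposited are a signal, read counts over size factors averaged per group. The deposited fold changes, p-values and direction columns of the authors' comparison were not used. The number of per-library columns left unmatched was 0.

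The limma fit (version 3.58.1, R 4.3.3) took log2(FPKM + 1) of 1 tissue at a time, without trend or block, with Benjamini-Hochberg adjustment over its listed genes, and the script was tested on simulated data. Depth is unknown, so no counting interval is given. Exact permutation tests used scipy 1.17.1 in Python 3.11.15. Alternatives were a pseudocount of 0.1, a mean of at least 1 FPKM, limma's trend, a replicate block, size factor scaling, other thresholds and each library left out. Named were Kcnma1, the 6 genes, the genes of 6 synaptic lists, the 3 most parallel genes each, and 17 marker lists by counts and sums. The genes and the lists were chosen with earlier results of these data known. Replicates are separate mice per the study's methods. GENCODE M21 gave positions.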

Additional observations from a re-analysis of the deposited data

How the results depend on the processing

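Every log2 fold change of the 6 genes kept its sign under all alternatives. With a pseudocount of 0.1, Grin2b passed at 0.65, and the genes past the threshold numbered 548 in hippocampus and 408 in cortex, against 278 and 173. With a log2 fold change beyond 1 they numbered 35 and 25. With each library left out, the range was 0.39 to 0.73 for Grin2b, 0.47 to 0.83 for Nlgn1, 0.57 to 0.97 for Camk2d, -1.06 to -0.61 for Stx1a, 1.27 to 1.5 for Sv2c, and -0.76 to -0.50 in hippocampus and -0.79 to -0.46 in cortex for Grm3. The genes of the synaptic lists past the threshold ranged from 3 to 8 in hippocampus and from 1 to 2 in cortex with a library left out. With all libraries they numbered 8 and 3, with the replicate block 7 and 3, and with a pseudocount of 0.1 they numbered 11 and 4. The tissue difference of Grm3 ranged from -0.16 to 0.17 with a library left out and changed sign. The cause of these shifts was not tested.

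WT and BK KO libraries share replicate numbers only: their same-numbered deviations correlated at 0.02, 0.084 and -0.069 in hippocampus and at -0.239, 0.125 and -0.216 in cortex, and not every library correlated best with its own number. With the replicate block Camk2d stayed at 0.74 with an unadjusted limma p of 0.0502 (adjusted p = 0.0679, within 0.0193 to 0.0679 over its alternatives with all libraries), and 272 and 165 genes passed in hippocampus and cortex. The other genes stayed on their side of the threshold with the block, while the adjusted p of Grm3 in cortex was 0.0535 (0.0206 to 0.0535 over its alternatives with all libraries). Between tissues, same-numbered deviations correlated at 0, 0.494 and 0.024 in WT and at 0.511, 0.655 and 0.551 in BK KO mice (196 genes), and with hippocampus and cortex of the same number and genotype in 1 block the tissue difference of Grm3 was 0.03. Depth is unknown and only called genes are listed, so genes that did not differ cannot be set beside these.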
